A study of Mus musculus with 48 samples.

Results

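Lrp2, Cubn, Amn, Dab2, Apoe, Apob, Apom, Ttr and Rbp4 encode the endocytic receptors and secreted transport proteins for which the visceral endoderm is known. These 9 genes were taken by name from the 49671 genes of the count table, with earlier results of these data known. Of the 9 genes, 7 had counts in at least 1 of 48 single cells, as did 21943 of the 49671. Of the 9, 4 (Cubn, Amn, Apoe and Apom) averaged at least 1 FPKM (fragments scaled to exon length and library size, computed here from the counts) over all cells, as did 10880 of all genes. In cells of the primitive endoderm precursor branch (pPrE), the mean level of Cubn was 3.55-fold, that of Apom 6.47-fold, that of Amn 16.5-fold and that of Lrp2 2.66-fold the mean in epiblast precursor cells (pEPI). Amn was high in a few cells only, with a median of 0 in both branches, and Lrp2 averaged less than 1 FPKM in each. Apoe was present in every cell of both branches, Dab2 in a few cells of each, and Ttr and Rbp4 had no count in any cell.

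The cells were isolated from the inner cell masses (ICMs) of 3 mouse blastocysts at E3.75 (days of embryonic development) and profiled with Smart-seq2, which amplifies whole cDNAs. The embryos came from natural matings between mice carrying the PDGFRa::H2B-GFP/+ reporter, in which a nuclear green fluorescent protein is read from the Pdgfra locus, and C57BL/6JxCBA/J hybrids. Trophectoderm was removed by immunosurgery, the ICMs were dissociated with enzymes, and no group received a treatment. According to the methods, the embryos used were positive for the reporter and had GFP cells in a salt-and-pepper pattern. The 25 pEPI and 23 pPrE cells are the branches of a published clustering of these cells, read by eye. The sample labels name the well, the stage and a wild-type genotype (WT) of each cell, but neither its lineage nor its embryo.

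The visceral endoderm arises from the primitive endoderm and surrounds the early embryo, where it takes up maternal proteins and secretes carriers of lipid, hormone and vitamin. Megalin (Lrp2) and cubilin (Cubn) are very large receptors for many ligands. Cubilin has no transmembrane segment and is held at the apical membrane by amnionless (Amn), and Dab2 is the adaptor that joins the tail of megalin to the clathrin coat. Apolipoproteins B, E and M carry lipid, transthyretin (Ttr) carries thyroid hormone, and Rbp4 carries retinol.

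The 48 cells count as 1 sample, because the embryos cannot be told apart. No test was made between the branches, and an SD describes the spread between cells. Because the published clustering used the transcriptomes of these very cells, the values below describe the branches and are no independent evidence of a lineage difference. Total counts ranged from 1718970 to 7342785 per cell. The summed level of 5 pPrE markers (Gata6, Gata4, Sox17, Pdgfra, Sox7) ranged from 0.263 to 133 FPKM in pEPI cells and from 45.8 to 265 FPKM in pPrE cells, while that of 6 pEPI markers ranged from 90.7 to 941 and from 3.93 to 340 FPKM. All 5 pPrE markers had the higher mean in the pPrE branch and 5 of the 6 pEPI markers were at least 2-fold lower there. Of 8 trophectoderm markers 4 averaged at least 1 FPKM, of which 2 (Krt18, Tfap2c) were at least 2-fold lower in pPrE cells and none as much higher, though Krt18 had a log2 ratio of -1.17 and one of -0.72 without its highest pEPI cell. The summed level of all 8 ranged from 2.82 to 196 FPKM in pEPI and from 3.996 to 106 FPKM in pPrE cells. Among the markers below that minimum, Cdx2 had 58 counts in pEPI and 2 in pPrE cells, while Gata3 had 66 and 372 (0.165 and 1.02 FPKM) and Elf5 6 and 106. The part of trophectoderm RNA in the values of the 9 genes was not tested. Counts on 4 Y-linked genes separated 29 cells (17 pEPI, 12 pPrE) with 242 or more such counts from 19 cells (8 pEPI, 11 pPrE) with at most 1, so at least 1 embryo of each sex was present and the branches drew unequally on them.

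The sequence before the start site is shown for the 4 genes with a ratio of at least 2-fold and counts in more than 10 cells. The letters GATAA, read by GATA factors such as the pPrE markers Gata4 and Gata6, were sought on both strands and would stand in capitals, and none of the 4 sequences holds them. Each line holds the 250 bases before the start site of the RefSeq transcript on GRCm38.p6, 5′ to 3′ on the strand of the gene.
Cubn, chr2:13491877-13492126, minus strand: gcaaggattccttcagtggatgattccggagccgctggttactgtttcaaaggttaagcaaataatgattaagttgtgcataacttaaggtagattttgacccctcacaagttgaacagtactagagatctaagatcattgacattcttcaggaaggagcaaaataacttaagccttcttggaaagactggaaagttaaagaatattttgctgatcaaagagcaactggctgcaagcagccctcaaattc
Apom, chr17:35131802-35132051, minus strand: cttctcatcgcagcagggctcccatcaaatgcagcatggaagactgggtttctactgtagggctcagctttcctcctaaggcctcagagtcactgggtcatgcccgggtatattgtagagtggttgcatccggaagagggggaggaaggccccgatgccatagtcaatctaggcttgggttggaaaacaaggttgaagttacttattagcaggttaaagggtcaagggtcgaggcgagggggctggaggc
Amn, chr12:111270846-111271095, plus strand: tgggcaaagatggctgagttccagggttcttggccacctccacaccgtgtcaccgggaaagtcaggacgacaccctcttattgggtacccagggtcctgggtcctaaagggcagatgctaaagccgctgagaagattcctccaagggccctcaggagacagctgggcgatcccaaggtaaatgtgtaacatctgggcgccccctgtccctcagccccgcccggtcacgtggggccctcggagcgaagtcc
Lrp2, chr2:69586030-69586279, minus strand: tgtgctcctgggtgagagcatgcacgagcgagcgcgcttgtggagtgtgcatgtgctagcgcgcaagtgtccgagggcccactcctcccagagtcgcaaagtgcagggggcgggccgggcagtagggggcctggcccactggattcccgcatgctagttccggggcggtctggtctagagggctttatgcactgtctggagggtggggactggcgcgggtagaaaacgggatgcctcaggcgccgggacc

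In windows from 250 bases before to 50 bases after the start, those of Cubn, Apom, Amn and Lrp2 held no match to GATAA, while that of Apob held 1 and the first of those of Dab2 held 2. Among 32851 such windows of all genes, 25.4% held GATAA. A match describes these letters and is not evidence of a bound factor, and the lack of one says only that the letters are not in the window. Windows on the chromosome of Ttr were left out, so RefSeq windows were searched for 8 of the 9 genes.

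**Figure D1:**
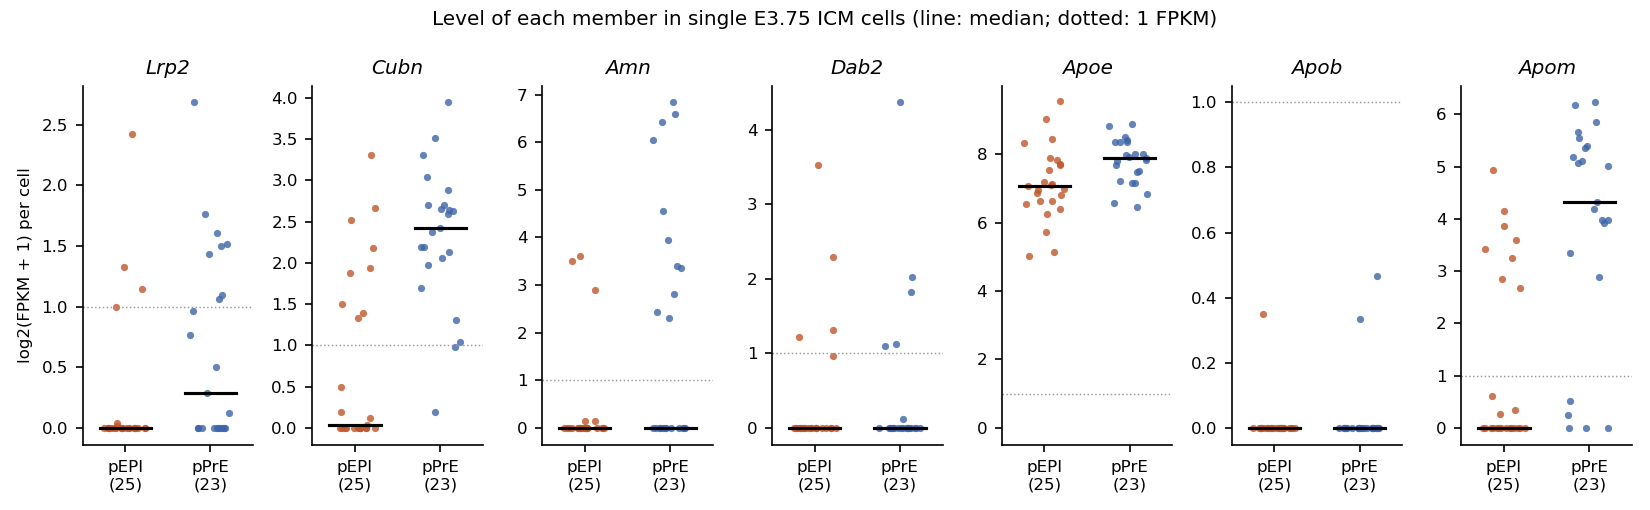
Level of the 7 counted genes in each cell, as log2(FPKM + 1), for 25 pEPI (orange) and 23 pPrE (blue) cells, with lines at the medians and a dotted line at 1 FPKM. Each panel has its own vertical scale. Cubn, Apom and Apoe have raised medians in pPrE cells, and Amn and Dab2 have medians of 0 in both branches. Apoe is at 31.5 FPKM or more in every cell.

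Cubn (ENSMUSG00000026726), on chromosome 2 (13276338 to 13491813, minus strand, GRCm38), was the receptor found in most pPrE cells. It ranged from 0 to 8.88 FPKM with a median of 0.0206 in pEPI cells, and from 0.140 to 14.4 FPKM with a median of 4.38 in pPrE cells. The branches overlapped, but the pPrE cell was the higher in 85.9% of all pairs of a pEPI and a pPrE cell. At least 1 FPKM was reached by 9 of 25 pEPI cells (36%, exact binomial interval 17.97% to 57.5%) and 21 of 23 pPrE cells (91.3%, 72.0% to 98.9%). The means were 1.35 ± 2.24 FPKM (SD, n = 25 cells) and 4.79 ± 3.23 FPKM (SD, n = 23 cells), and their log2 ratio was 1.83 with a counting interval of 1.76 to 1.90. Of the intervals given here, those of counts and ratios cover counting error only, in reads that carry no molecular identifiers, and those of shares treat cells as independent draws. After every cell was thinned to 1718970 counts, 9 pEPI and 22 pPrE cells reached 1 FPKM. Cubn overlaps Gm13270, a gene on the opposite strand with 117 counts, and Smart-seq2 reads do not carry the strand.

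Amn (ENSMUSG00000021278), on chromosome 12 (111271095 to 111276426, plus strand), had no count in most cells and was high in a few. It ranged from 0 to 11.2 FPKM in pEPI cells and from 0 to 113 FPKM in pPrE cells, with a median of 0 in both. At least 1 FPKM was reached by 3 of 25 pEPI cells (12%, 2.55% to 31.2%) and by 11 of 23 pPrE cells (47.8%, 26.8% to 69.4%). Single cells set the size of the mean. The pPrE cells C5 (113 FPKM), D1 (95.8 FPKM), C6 (84.6 FPKM) and D3 (64.8 FPKM), named by their wells, stood above all others, and the next pPrE cell had 22.6 FPKM. The mean was 1.13 ± 3.18 FPKM in pEPI and 18.6 ± 34.6 FPKM in pPrE cells, with a log2 ratio of 4.04 (3.86 to 4.24), and C5 alone held 38.2% of the pPrE counts. Without C5 the ratio was 3.67, and without C8, the highest pEPI cell, it was 4.71.

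Lrp2 (ENSMUSG00000027070), on chromosome 2 (69424340 to 69586065, minus strand), was low throughout. It ranged from 0 to 4.38 FPKM with a median of 0 in pEPI cells and from 0 to 5.43 FPKM with a median of 0.218 in pPrE cells. The 2 ranges nearly coincided, and what differed was the number of cells. In all, 3 of 25 pEPI cells (12%, 2.55% to 31.2%) and 8 of 23 pPrE cells (34.8%, 16.4% to 57.3%) reached 1 FPKM, with intervals that overlap. The minimum of 1 FPKM takes more counts for longer exons. At least 1 count of Lrp2 was found in 6 pEPI and 13 pPrE cells. Lrp2 has the longest summed exons of the 9 genes, and its 493 counts in pEPI and 1598 in pPrE cells gave means of 0.325 ± 0.941 and 0.864 ± 1.28 FPKM, with 1.41 (1.26 to 1.56) as their log2 ratio. Cell E3 held 51.3% of the pEPI counts, and without it the ratio was 2.47. Without F7, the highest pPrE cell, with 41.2% of the counts of its branch, it was 1.01.

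Dab2 (ENSMUSG00000022150), on chromosome 15 (6299788 to 6440712, plus strand), differed between the branches by an amount that 1 cell decided. It ranged from 0 to 10.5 FPKM in pEPI and from 0 to 19.7 FPKM in pPrE cells, with a median of 0 in both. At least 1 FPKM was reached by 4 of 25 pEPI cells (16%, 4.54% to 36.1%) and 5 of 23 pPrE cells (21.7%, 7.46% to 43.7%). The means of 0.729 ± 2.22 and 1.21 ± 4.12 FPKM gave a log2 ratio of 0.73 (0.57 to 0.88). Cell C6 alone held 79.8% of the pPrE counts, and without it the ratio turned to -0.99. Without E3, which held 49.9% of the pEPI counts, it was 1.91.

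Apoe (ENSMUSG00000002985), on chromosome 7 (19696109 to 19699188, minus strand), encodes the apolipoprotein by which lipoprotein particles are recognised by receptors. It ranged from 31.5 to 755 FPKM with a median of 134 in pEPI cells, and from 86.1 to 471 FPKM with a median of 237 in pPrE cells. The pPrE range lay within the pEPI range, and the pPrE cell was the higher in 72.5% of pairs. The means of 184 ± 161 FPKM in pEPI and 243 ± 105 FPKM in pPrE cells gave a log2 ratio of 0.40 (0.38 to 0.42), a difference smaller than either SD. Without C7, the highest pEPI cell, the ratio was 0.60, and without the highest pPrE cell it was 0.34. Apoe was the most abundant of the 9 genes per length of exon, and the only one whose level was apart from the next in order, Apom, by more than the SDs of both in each branch.

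Apom (ENSMUSG00000024391), on chromosome 17 (35128997 to 35132050, minus strand), encodes the apolipoprotein that carries sphingosine-1-phosphate. It ranged from 0 to 29.7 FPKM with a median of 0 in pEPI cells, and from 0 to 74.1 FPKM with a median of 18.9 in pPrE cells. The branches overlapped, with the pPrE cell the higher in 80.2% of pairs. At least 1 FPKM was reached by 8 of 25 pEPI cells (32%, 14.95% to 53.5%) and 18 of 23 pPrE cells (78.3%, 56.3% to 92.5%). The means were 4.07 ± 7.33 and 26.4 ± 22.8 FPKM, with a log2 ratio of 2.69 (2.55 to 2.84).

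The other 3 transport genes were at or near 0. Apob (ENSMUSG00000020609, chromosome 12, 7977648 to 8016835, plus strand), the scaffold of very low density lipoprotein, had 18 counts in 1 pEPI cell and 39 counts in 2 pPrE cells and never passed 0.383 FPKM, so that 0 of 48 cells reached 1 FPKM, which allows a share of up to 7.40% (exact binomial). Its ratio of 1.35 (0.51 to 2.25) rests on these 3 cells, and was 0.12 without the highest of them. Ttr (ENSMUSG00000061808, chromosome 18, 20665280 to 20674321, plus strand) and Rbp4 (ENSMUSG00000024990, chromosome 19, 38116629 to 38125281, minus strand) had 0 counts over all 48 cells, with an upper exact Poisson limit of 3.69 counts. A floor set at 3 counts corresponds to 0.0158 CPM (counts scaled to the summed total). At this depth neither transcript was detectable, on the same libraries in which Apoe had 41150 counts in pEPI and 50888 in pPrE cells.

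In all, 5 of the 7 counted genes, which were not chosen blind to these data (Lrp2, Cubn, Amn, Apob and Apom) had a log2 ratio of at least 1, against 19.2% of the 21858 genes with any count. Among the 10880 genes with a mean of at least 1 FPKM, 6.20% were at least 2-fold higher and 9.03% at least 2-fold lower in pPrE cells, while Cubn, Amn and Apom, 3 of the 4 of the 9 genes that averaged this much, were higher. None of the 7 counted genes had a lower mean in the pPrE branch, and the median log2 ratio of the 10880 genes was 0.002. Dab2 had a lower mean there without C6 (log2 ratio -0.99), and the ratio of Apob was 0.12 without its highest pPrE cell. For none of the 7 did the difference between the means exceed the 2 SDs added together. In order of mean level in pPrE cells the genes were Apoe, Apom, Amn, Cubn, Dab2, Lrp2 and Apob, and in pEPI cells Cubn stood before Amn, but past Apoe no neighbours in either order differed beyond their SDs.

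**Figure D2:**
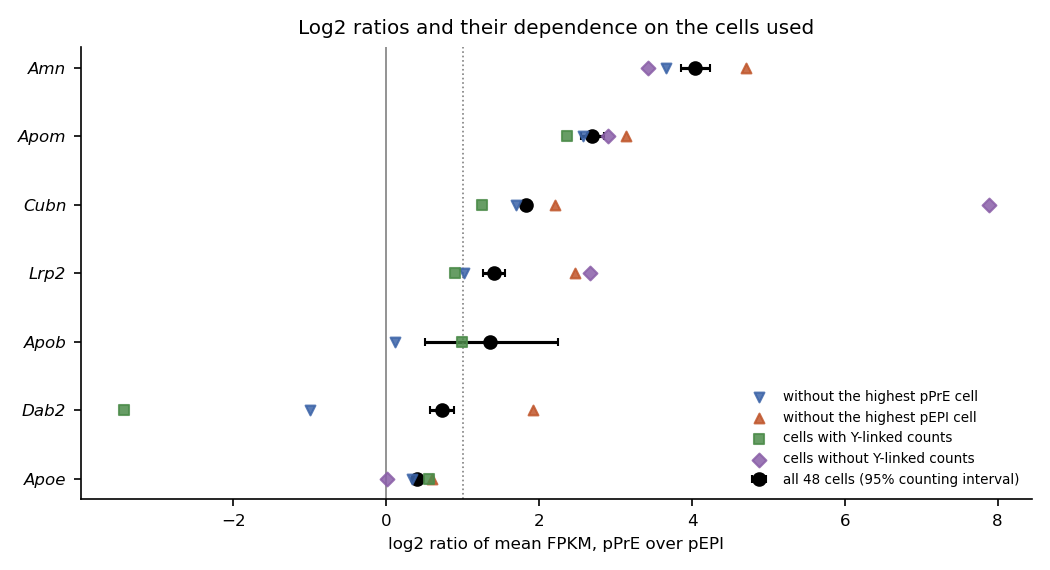
Log2 ratio of mean FPKM, pPrE over pEPI, of the 7 counted genes over all cells (black, with 95% counting intervals), without the highest pPrE or pEPI cell of each gene (triangles), and within the cells with or without Y-linked counts (squares and diamonds, left out where the pEPI cells had 3 counts or fewer). Apom, Cubn and Amn keep ratios above 1 in all the settings drawn, and Dab2 lies on both sides of 0.

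Cubilin and its membrane partner were found together in some pPrE cells and in none of the pEPI cells sampled. Cubn and Amn both reached 1 FPKM in 10 of 23 pPrE cells (43.5%, 23.2% to 65.5%) and in 0 of 25 pEPI cells, which allows a share of up to 13.7%. Of the pEPI cells, 9 had Cubn without Amn and 3 had Amn without Cubn. The 9 all had Y-linked counts and the 3 had none, and of the 10 pPrE cells with both genes 8 were among the 11 without Y-linked counts and 2 among the 12 with them. The part of this division in the pairing of Cubn and Amn was not tested. Of the pPrE cells 11 had Cubn without Amn, and D1, with 95.8 FPKM of Amn and 0.976 FPKM of Cubn (27 counts), was the 1 cell with Amn below the Cubn minimum. At least 1 count of Cubn was found in 13 pEPI and 23 pPrE cells, so these groups depend on the minimum. Lrp2 at 1 FPKM came with Cubn in 8 of 8 pPrE cells and in 2 of 3 pEPI cells. Cubn alone or with others was at 1 FPKM in 21 of 23 pPrE cells, and Amn in 3 of 25 pEPI cells. With single shares this high or low, these overlaps are no evidence that the genes go together or apart. Cubn, Amn and Lrp2 together were found in 6 pPrE cells (26.1%) and no pEPI cell, and D3 was the 1 cell that also had Dab2. Cells in which none of the 4 uptake genes reached 1 FPKM numbered 11 in the pEPI branch (44%) and 1 in the pPrE branch (4.35%). Counting all 9 genes, a pEPI cell had a median of 2 at 1 FPKM or more (range 1 to 5) and a pPrE cell a median of 4 (range 2 to 6). The like number over all genes is not given here, so these medians are no result about the 9 genes as a set. The median total count was 3751329 in pEPI and 4251373 in pPrE cells.

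**Figure D3:**
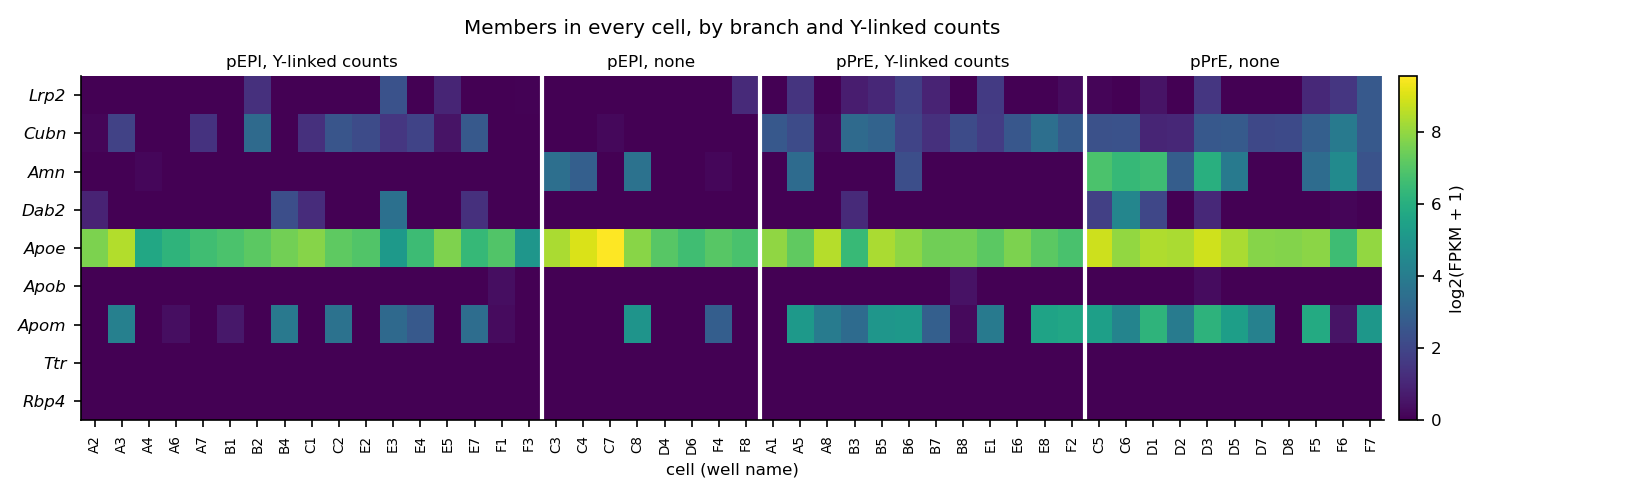
Level of the 9 genes (rows) in each of the 48 cells (columns, by well), as log2(FPKM + 1) in colour, with cells ordered by branch and by Y-linked counts. Cubn runs through nearly all pPrE cells, the bright Amn cells lie in the last block, and the rows of Ttr and Rbp4 are at 0.

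Within the pPrE branch, Amn and Cubn levels had a rank correlation (Spearman's rho) of 0.03 over 23 cells, whereas Amn went with Dab2 (rho 0.65), Apom (rho 0.55) and Apoe (rho 0.50). Over all 48 cells Cubn went with Gata4 (rho 0.60) and against Nanog (rho -0.63), and so did Apom (0.52 and -0.61). Inside the pPrE branch these relations were -0.06 and -0.03 for Cubn and 0.06 and -0.16 for Apom, and inside the pEPI branch 0.33 and -0.61 for Cubn and 0.03 and -0.28 for Apom. Such values describe cells that share library preparation and embryos, and many of them are at 0. Rank correlations with the total count over the 48 cells were 0.16 for Cubn, 0.18 for Amn and 0.04 for Apom.

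The uptake genes divided differently by Y-linked counts. Cubn at 1 FPKM was found among pEPI cells only in those with Y-linked counts, with 9 of 17 cells and a mean of 1.97 FPKM, against 0 of 8 cells without them and a mean of 0.0208 FPKM. In pPrE cells its level was alike, with 11 of 12 cells at 4.68 FPKM on average and 10 of 11 cells at 4.90 FPKM. Amn lay the other way. The pEPI cells with Y-linked counts held 1 count of Amn in all, so no ratio is given within these cells. In the pEPI branch, 1 FPKM of Amn was reached by 0 of the 17 cells that had Y-linked counts and by 3 of the other 8. In the pPrE branch it was reached by 2 of the 12 that had them (mean 1.10 ± 2.80 FPKM) and by 9 of the other 11 (mean 37.8 ± 43.1 FPKM). For Dab2 these cells numbered 4 of 17 and 0 of 8 in the pEPI branch, 1 of 12 and 4 of 11 in the pPrE branch, so that its log2 ratio within the cells with Y-linked counts was -3.43. Apom kept ratios of 2.36 and 2.90 within the cells with and without Y-linked counts, and Apoe had 0.56 and 0.02. In order of wells the classes formed runs: A1 to C2 and E1 to F3 had Y-linked counts, and C3 to D8 and F4 to F8 did not. The 4 highest Amn cells (C5, D1, C6 and D3) and the 3 pEPI cells with Amn all lay in C3 to D8. The highest level of Amn in F4 to F8 was 22.6 FPKM, in F6. Sex, embryo and well position cannot be told apart in these cells.

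**Figure D4:**
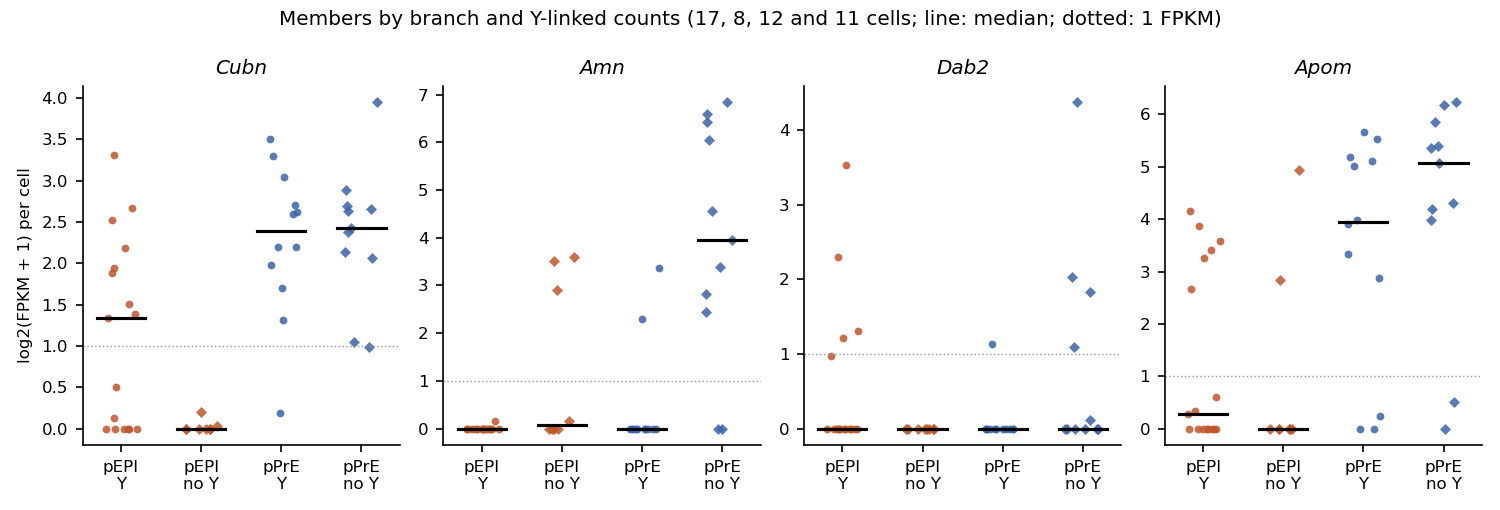
Level of Cubn, Amn, Dab2 and Apom in each cell as log2(FPKM + 1), for pEPI and pPrE cells with (Y, circles) and without (no Y, diamonds) Y-linked counts, with lines at the medians and a dotted line at 1 FPKM. The high Amn cells are pPrE cells without Y-linked counts, and the pEPI cells with Cubn are cells with them.

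Genes whose levels ran most like those of the 9 genes were ranked over the 48 cells among 8929 genes. Closest to Cubn were Gdpd5 (Spearman's rho 0.70), Fgfr2 (0.70), Tax1bp3 (0.69), Pgam2 (0.69) and Havcr1 (0.69). Fgfr2 is a receptor for the fibroblast growth factors to which the primitive endoderm answers. Closest to Apom were Efna4 (0.71), F2r (0.68), Slc1a3 (0.66), Col4a2 (0.62) and Aldh18a1 (0.62), of which Col4a2 encodes a chain of basement membrane collagen. Among the 5 closest to Amn were Xlr3a (0.67), on the X chromosome, Vim (0.66) and Slc2a3 (0.66). Apoe was closest to Duox1 (0.61), Pja1 (0.60, also on the X chromosome), Coro7 (0.58), Mrps12 (0.56) and Tfpi (0.55), and Lrp2 to Tmem245 (0.56), Rere (0.52), Cdk7 (0.49), Dkk1 (0.49) and Oplah (0.49).

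The machinery on which the receptors depend was present in both branches at like levels. Of 30 clathrin and endosome genes, 27 averaged at least 1 FPKM and none differed 2-fold, with a median log2 ratio of 0.04 against 0.00 over all genes. Clta, a clathrin light chain, had means of 194 and 219 FPKM in pEPI and pPrE cells, and Rab7, of late endosomes, 130 and 137 FPKM. Of 13 genes of the LDL receptor family and its partners, 5 averaged this much and 1, Lrp6, a co-receptor of Wnt signalling, was 2-fold higher (0.668 and 1.52 FPKM, log2 ratio 1.19, and 0.92 without its highest pPrE cell). Lrpap1, the chaperone that keeps megalin and its relatives free of ligand during folding, had the highest level of that list, with 138 ± 59.7 and 215 ± 67.6 FPKM (log2 ratio 0.65). Lrp10 followed with 8.97 and 9.72 FPKM.

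The other cargo genes were mostly silent or alike. Of 13 further secreted proteins of yolk sac and plasma, 9 had no count (Afp, Alb, Ambp, Fga, Fgb, Fgg, Cp, Hpx and Serpina1a). Of all 49671 genes, 21943 had any count. Selenop, a selenium carrier, was lower in pPrE cells (5.62 and 1.95 FPKM, log2 ratio -1.53, and -0.82 without C8, its highest pEPI cell), with 9 of 25 and 8 of 23 cells at 1 FPKM, and Ahsg, the other of the 2 highest of the list, had 1.08 and 2.02 FPKM. Of 16 genes of apolipoproteins and their assembly, 6 averaged at least 1 FPKM and none differed 2-fold. Among them Apoc1, next to Apoe in the genome, had 193 and 195 FPKM. P4hb, a subunit of the transfer protein that loads Apob with lipid, had 163 and 210 FPKM. Mttp, the other subunit of this protein, had only 1.24 and 0.963 FPKM. Of 16 retinoid and vitamin genes 9 averaged as much. Aldh1a1, which makes retinoic acid, was higher in pPrE cells (0.186 and 3.86 FPKM, log2 ratio 4.37, and 3.68 to 5.71 without the highest cell of either branch) and Fcgrt, the neonatal Fc receptor, lower (2.72 and 0.812 FPKM, log2 ratio -1.75, and -1.05 without C3, its highest pEPI cell). The highest of the list were the folate receptor Folr1 (29.04 and 26.9 FPKM) and Cd320, the receptor for cobalamin-loaded transcobalamin (21.3 and 20.1 FPKM), while the Rbp4 receptor Stra6 had no count.

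Of 10 brush border genes 5 averaged at least 1 FPKM. Slc9a3r1, a scaffold under the apical membrane, was higher in pPrE cells (16.01 and 32.3 FPKM, log2 ratio 1.01, and 0.80 without C6), Anpep, a membrane peptidase, was lower (2.09 and 0.480 FPKM, log2 ratio -2.12, and -2.92 without its highest pPrE cell), and Ezr had 83.6 and 65.2 FPKM. Of 7 regulators of visceral endoderm 5 averaged as much. Hnf4a, which drives lipoprotein genes in liver and visceral endoderm, was lower (4.39 ± 9.24 and 1.83 ± 7.66 FPKM, log2 ratio -1.26), but the ratio was -0.61 without F8, its highest pEPI cell, and -4.22 without its highest pPrE cell. Cited1 had 6.94 and 7.96 FPKM. Among the regulators below that minimum, Foxa2 had 1 count in pEPI and 344 in pPrE cells (0.00488 and 1.45 FPKM). It reached 1 FPKM in 0 pEPI and 5 pPrE cells. Foxa1 had 32 and 147 counts (log2 ratio 1.23, and -3.01 without its highest pPrE cell).

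**Figure D5:**
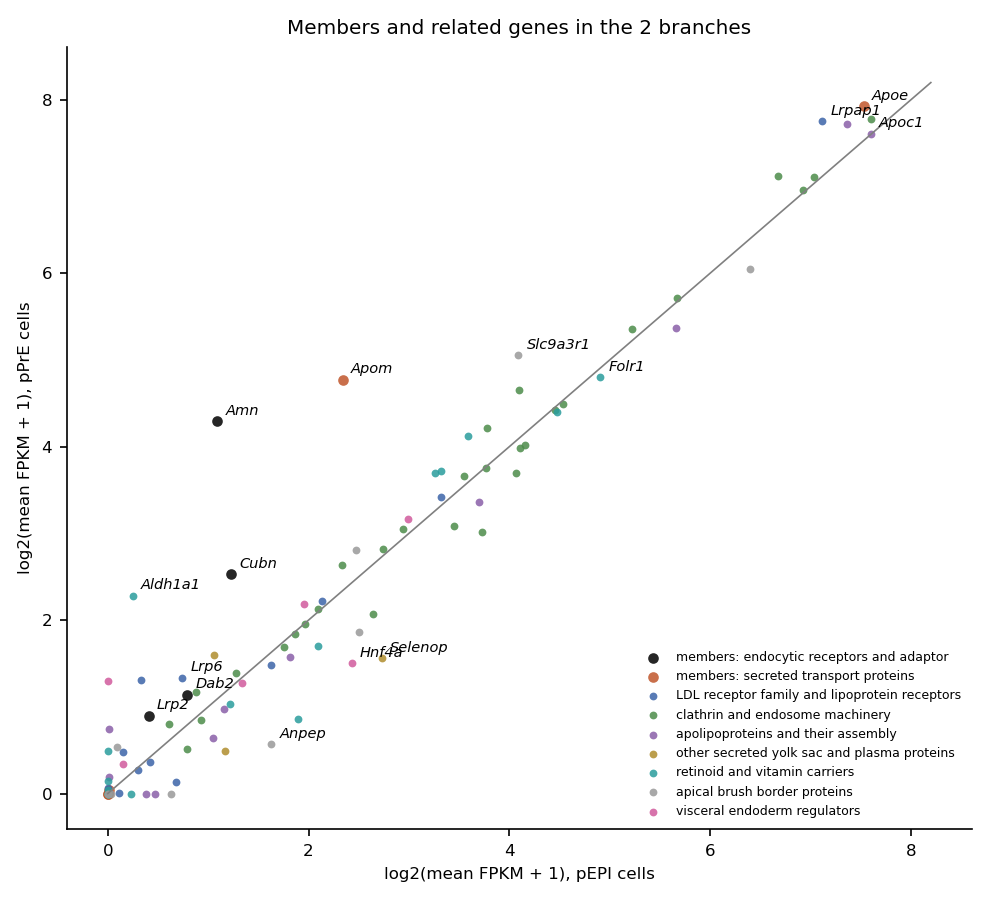
Mean level of the 9 genes (large points, uptake genes in black and secreted carriers in orange) and of 7 lists of related genes (small points) in pEPI (horizontal) and pPrE (vertical) cells, as log2(mean FPKM + 1), with the line of equal levels. Clathrin and endosome genes lie along the line, Cubn, Amn, Apom and Aldh1a1 lie above it, and Hnf4a, Selenop and Anpep below.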

How the data were processed

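The deposited values are raw counts for 49671 genes in 48 cells, which the authors made by counting reads aligned to mm10 on Ensembl 87 genes with HTSeq, without normalization. STAR is listed as a tool in the submitters' processing notes, and no versions are given in the sources used here. According to the methods, libraries with fewer than 500000 mapped reads, skewed gene body coverage or an outlying PCA position were removed.

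FPKM was computed here from the counts, the union of exons of each gene in GENCODE M21 (GRCm38) and library sizes by the median of ratios over 3665 genes counted in every cell. The Ensembl 87 annotation was not used here. Depth ranged from 1718970 to 7342785 counts per cell. Branches were read by eye from the published dendrogram. As the 48 cells are 1 sample, there is no test. Means, SDs between cells, exact Poisson (counts) and Clopper-Pearson (shares) intervals at 95% and an approximate counting interval of log2 ratios are given, the last as wide as the exact interval for summed counts. A gene counted as higher or lower at a log2 ratio of 1 or more in size and a mean of at least 1 FPKM.

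The 9 genes and the lists of related genes were chosen with earlier results of these data known. Named besides the 9 genes and the marker genes are, of each list, the genes past the fold and the 2 with the highest mean, and for each of the 9 genes at 1 FPKM in at least 10 cells the 5 genes with the highest Spearman correlation among those with a mean log2(FPKM + 1) above 1. Other genes were named after their values were seen, and the motif was chosen after the promoter sequences were seen. Some genes that this rule names are not reported here. Promoters are from RefSeq on GRCm38.p6.

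Alternatives covered the library size (total count, or TMM factors from edgeR 4.0.16 in R 4.3.3), thinning, the grouping by PC1 of 3509 variable genes, the summary over cells, the pseudocount, the split by Y-linked genes (100 or more counts on 4 genes in all), cells by well letter, and the minimum and fold. Leaving out the highest cell of each gene was added after seeing the data. Scripts were tested on simulated data and ran in Python 3.11.15 with scipy 1.17.1, pandas 2.3.3, matplotlib 3.10.9 and numpy 2.4.6.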

Additional observations from a re-analysis of the deposited data

How the results depend on the processing

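Of 115 recomputed log2 ratios of the 7 counted genes, 109 kept their direction, 3 were 0 (Amn, Dab2 and Apob with medians) and 3 reversed, all of Dab2: -3.43 within cells with Y-linked counts, -0.99 without C6, its highest pPrE cell, and -1.76 without the cells of well letter C, where leaving out 1 letter at a time gave -1.76 to 2.16. Across all settings Apom kept ratios of 2.36 to 4.31, Cubn 1.25 to 7.88, Lrp2 0.28 to 2.69, Apoe 0.02 to 0.88 and Amn 0 to 9.86, the highest of Cubn and Amn against pEPI cells with few counts. The number of the 9 genes at a log2 ratio of at least 1, 5 over all cells, was 2 with medians, 3 with the mean of log2(FPKM + 1), 3 with 1 FPKM added to both means, 3 among cells that had Y-linked counts and 2 at a log2 ratio of at least 2. The 3 among cells that had Y-linked counts include Amn, whose ratio there rests on 1 pEPI count. The number with a mean of at least 1 FPKM in pPrE cells, 5 over all cells, was 3 with medians and 3 at a minimum of 5 FPKM. In pEPI cells this number, 4 over all cells, was 1 with medians, 2 with the mean of log2 values and 1 at 5 FPKM. Among the 10880 genes with a mean of at least 1 FPKM, 6.20% were at least 2-fold higher in pPrE cells over all cells. The numbers of the 9 genes at a log2 ratio of at least 1 were counted without this minimum. The share of 6.20% was 6.72% when cells were grouped by PC1, 5.55% with medians and 2.63% with the mean of log2 values. It was 3.84% with a pseudocount of 1. It was 7.04% among cells that had Y-linked counts, 12.6% among the others and 6.28% to 7.48% when each letter was left out in turn. With no minimum level it was 19.2%, at a log2 ratio of at least 0.58 it was 12.4%, and at 2 it was 2.21%. The cause of these changes was not tested. No paired analysis was possible because the labels hold a single group.

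The 48 cells hold no replicate of a branch that the labels name, so the spread between embryos is unknown. Embryos are separated only as far as Y-linked counts do. Both of those classes hold cells of both branches, and both fall in runs of neighbouring wells. Reads carry no molecular identifiers, so 0 counts of Ttr or Rbp4 limit the reads and not the molecules in a cell.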

Other observations

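Single cells, chosen after their values were seen, stood out in several of the genes at once. The pPrE cell C6 had the highest level of 48 cells of Dab2 (19.7 FPKM), of Sox7 (75.5 FPKM) and Foxa2 (12.5 FPKM), transcription factors of endoderm, and of the apical scaffold gene Slc9a3r1 (130.3 FPKM). C6 had rank 2 in Sox17 and rank 9 in Gata4, but rank 22 in Gata6 (15.8 FPKM). It also had 39.2 FPKM of Nanog and no Lrp2. D3, the cell with all 4 uptake genes, had the next to highest Sox7 (24.8 FPKM) and Slc9a3r1 (105.6 FPKM), and 71.2 FPKM of Apom. Cell E3 lay in the pEPI branch, with 246.5 FPKM of Nanog, 0.424 FPKM of Sox17 and no Sox7, and still had the next to highest levels of 48 cells of Lrp2 (4.38 FPKM) and Dab2 (10.5 FPKM), with 1.84 FPKM of Cubn and 8.56 FPKM of Apom. Of the other pPrE markers, E3 had 10.5 FPKM of Gata6 and 0.962 FPKM of Gata4.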
